A study of Mus musculus with 8 samples.

Results

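The genes described here encode enzymes that build ceramide and turn it into sphingomyelin, and were measured by RNA-seq in mouse neonatal cardiomyocytes (NCMs) after in utero exposure to diesel exhaust (DE) or filtered air (FA). They are Sptlc1, Sptlc2, Sptlc3, Cers1, Cers2, Cers4, Cers5, Cers6, Degs1 and Sgms1, which were picked by symbol. All 10 are among the 27179 genes of the count table. Each of the 8 libraries came from the heart of 1 male C57Bl/6 J pup on postnatal day 0, with 4 FA libraries (replicates 2, 3, 4 and 6) and 4 DE libraries (replicates 1, 3, 5 and 7). Dams breathed FA or DE through most of gestation, and no other treatment or allele separates the groups. Atria and vessels were trimmed off, and fibroblasts were reduced by pre-plating with Ara-C, so the libraries hold an enriched and not a pure population of cardiomyocytes.

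Sphingolipids are made from an amino acid and an activated fatty acid. Serine palmitoyltransferase (SPT) joins serine and palmitoyl-CoA in the step that limits the rate of the pathway, ceramide synthases then attach a second fatty acid whose chain length depends on the enzyme, a desaturase gives ceramide, and sphingomyelin synthase moves a phosphocholine group onto it. Ceramide can also be cleaved to sphingosine and phosphorylated to sphingosine 1-phosphate (S1P). In heart muscle, ceramide is known as a lipid that builds up when fatty acid supply exceeds oxidation, and S1P is known for its role in heart and vessel development.

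Total counts ran from 17943024 to 39839737 per library. Levels are given as CPM, which are counts brought to a common library total, here with TMM factors that correct for composition. Of 10 cardiomyocyte markers, all had counts and their summed level was 67770 to 74710 CPM in FA and 52810 to 61500 CPM in DE, against 2052 to 3540 and 3745 to 6293 CPM for 10 fibroblast markers. In bulk RNA, fewer cells of a type and less RNA per cell cannot be told apart. In the sample names, DE replicates 3 and 5 carry the number 12 and the other 6 libraries the number 11; what this prefix stands for is not stated, and no FA library carries 12.

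None of the synthesis genes passed the test for a difference between FA and DE. Of the 10 genes, 8 had enough counts to be tested, and 0 of these 8 were called at an adjusted p of 0.05 or less with a difference of at least 25% (edgeR's quasi-likelihood test, Benjamini-Hochberg adjustment over 14966 genes), whereas 5.8% of all tested genes were called. At an unadjusted p under 0.05 there were also 0 of 8, against 25.6% of all tested genes. In 0 of 8 did the FA and DE libraries fail to overlap, against 14.7% of all tested genes. DESeq2, and each of the other alternatives run, called 0 of the 8 as well. The median log2 fold change of the 8 genes was -0.038, beside 0.0037 for all tested genes. Of the 8 genes, 6 had a lower and 2 a higher mean in DE.

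The rank of the levels can be compared between genes only after division by transcript length. In FA, in CPM per kb of transcript, Degs1 was highest with 54.8 ± 5.99 (SD, n = 4), followed by Cers2 with 40.1 ± 3.91, Sgms1 with 17.47 ± 1.21 and Cers5 with 17.4 ± 1.41. Below these lay Sptlc2 with 7.73 ± 0.659, Cers4 with 6.83 ± 0.308, Sptlc1 with 5.42 ± 0.339 and Cers6 with 3.40 ± 0.855. Among neighbours in this order, only the ranges of Sgms1 and Cers5 overlapped over the 4 FA libraries. In DE the same 8 genes stood in the same order, except that Cers5 (19.5 ± 1.43) lay above Sgms1 (17.4 ± 2.13), and there Sptlc2 also overlapped with Cers4, and Cers4 with Sptlc1. The annotated length used for Cers4, 9475 bases, is the longest of the set and its length in these cells was not measured, so its place in the order rests on the annotation.

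**Figure D1:**
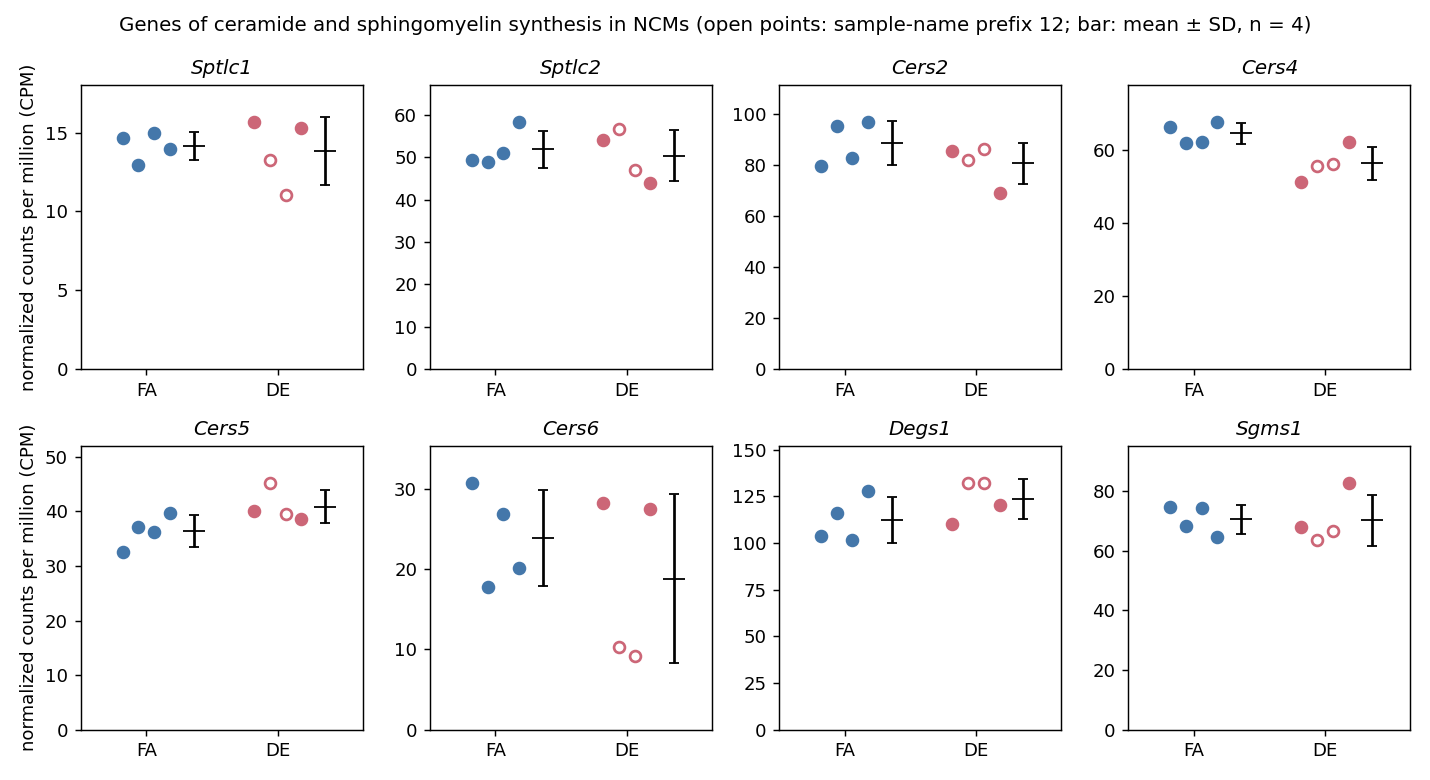
Normalized CPM (y axes, from 0) of the 8 tested synthesis genes in each FA (blue) and DE (red) library, with open points for libraries of prefix 12 and black bars for the mean ± SD of 4 libraries. In every panel the FA and DE points overlap, and for Cers6 the 2 open points, at 10.3 and 9.13 CPM, lie below the other 6 libraries.

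Sptlc1 and Sptlc2 encode the subunits that together form the catalytic core of SPT, and neither passed the test. Sptlc1 (chromosome 13, 53332748 to 53377417 on GRCm38) was at 14.6, 13.0, 14.95 and 14.0 CPM in FA replicates 2, 3, 4 and 6, and at 15.7, 13.3, 11.1 and 15.3 CPM in DE replicates 1, 3, 5 and 7. The DE libraries held both the highest and the lowest value of this gene. The log2 fold change (DE minus FA) was -0.03 ± 0.13 (SE), with a 95% interval of -0.32 to 0.25 and an adjusted p of 0.889.

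Sptlc2 (chromosome 12, 87305058 to 87388355) was at 49.3, 48.8, 51.1 and 58.3 CPM in FA and at 54.0, 56.7, 47.0 and 43.8 CPM in DE, in the same order of replicates. Its log2 fold change was -0.04 ± 0.11, with an interval of -0.28 to 0.20 and an adjusted p of 0.844. The FA range lay within that of DE but for replicate 6. The log2 ratio of Sptlc2 to Sptlc1, each per length, was 0.51 ± 0.14 in FA and 0.51 ± 0.28 in DE (SD, n = 4 each), a difference of -0.0036 with p = 1.0 in a two-sided exact permutation test over the libraries. With prefix 11 only this difference was -0.22.

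Sptlc3 encodes an alternative subunit that can take the place of Sptlc2 and is known to accept shorter acyl-CoAs. It had 1 count in all 8 libraries together, in DE replicate 1, so no comparison was made and the ratio of Sptlc3 to Sptlc2 could not be formed. A count of 0 allows up to 3 counts, which is 0.0753 CPM in the deepest and 0.167 CPM in the shallowest library. These limits cover counting error only.

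Ceramide synthases attach the fatty acid that sets the chain length of the ceramide. Cers1, known as the synthase of C18 ceramide in brain and skeletal muscle, had 0 counts in all 8 libraries. This value needs care, because Cers1 shares its transcript with Gdf1, a growth factor gene of the TGF-beta family, which also had 0 counts in every library. On GRCm38, Cers1 spans chromosome 8 from 70315775 to 70331588 and Gdf1 starts at the same base and ends at 70331592. In the GENCODE M21 transcripts paired with the RefSeq entries of each gene, 2711 of 2711 exonic bases of Cers1 (100%) are exonic in Gdf1 too. By GENCODE M21 gene names, Cers1 has 3171 exonic bases, of which 42.5% are shared with Gdf1 on the same strand. Reads were aligned with an Ensembl transcriptome, but the annotation used for counting, and whether fragments that lie on 2 genes were counted, is not stated, so the 0 cannot be read as absence of Cers1 RNA.

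The 250 bases before this common start are shown because they serve both genes, the RefSeq promoter windows of the pair being identical in 300 of 300 bases. They lie on the plus strand at chr8:70315525-70315774 (GRCm38.p6), and capitals mark the only GC box, searched as GGGCGG on either strand (CCGCCC on the other).
Cers1 and Gdf1: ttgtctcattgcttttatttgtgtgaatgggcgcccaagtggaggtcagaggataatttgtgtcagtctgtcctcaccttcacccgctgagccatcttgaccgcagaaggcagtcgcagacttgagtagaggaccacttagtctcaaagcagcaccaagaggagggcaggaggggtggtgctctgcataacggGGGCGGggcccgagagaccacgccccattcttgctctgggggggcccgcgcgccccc
Of 32851 RefSeq promoters, 32.7% hold this motif in the 250 bases before the start, so its presence does not set the pair apart.

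Cers2, known as the synthase of very long chain ceramides, was the most abundant ceramide synthase per length. In FA replicates 2, 3, 4 and 6 it was at 79.8, 95.4, 82.9 and 97.0 CPM, and in DE replicates 1, 3, 5 and 7 at 85.5, 82.1, 86.4 and 69.1 CPM. The 4 DE values lay at or below the middle of the FA range, with DE replicate 7 lowest of all. Its log2 fold change was -0.13 ± 0.11, with an interval of -0.37 to 0.10 and an adjusted p of 0.456. The gene lies on chromosome 3 from 95314771 to 95323599.

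Cers4, a synthase known for C18 and C20 ceramides and for expression in heart, came nearest to a difference. It was at 66.6, 62.0, 62.4 and 67.8 CPM in FA and at 51.3, 55.8, 56.3 and 62.3 CPM in DE. Of the DE libraries, 3 lay below all FA libraries, and DE replicate 7 (62.31 CPM) lay just above the lowest FA library (62.03 CPM). The log2 fold change was -0.20 ± 0.09, with an interval of -0.40 to 0.0033, an unadjusted p of 0.0533 and an adjusted p of 0.202. With offsets fitted to the dependence of each library on transcript length and GC content, the value turned to 0.045. Cers4 (chromosome 8, 4492818 to 4529603) has the longest annotated transcript of the set, and its length in these cells was not measured. The same offsets moved its log2 difference between DE libraries of prefix 12 and prefix 11 from -0.017 to 0.51. The part of transcript length in the values of Cers4 was not tested. Over the 8 libraries the tested genes with log2 CPM most like that of Cers4 were Herc4 (Pearson's r of 0.965), Lrpprc (0.940) and Mapre2 (0.937), values that share library, scaling and exposure group.

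Cers5 and Cers6 both make C16 ceramide, which is studied for its part in lipid stress of the heart. Cers5 (chromosome 15, 99735592 to 99772515) was at 32.7, 37.1, 36.2 and 39.8 CPM in FA and at 40.1, 45.3, 39.5 and 38.6 CPM in DE. Most DE values were above most FA values, but FA replicate 6 exceeded DE replicates 5 and 7. DE minus FA was 0.17 ± 0.10 on the log2 scale, with an interval of -0.05 to 0.38 and an adjusted p of 0.309.

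Cers6 (chromosome 2, 68861145 to 69114284) varied most among the 8 genes. It was at 30.8, 17.7, 26.9 and 20.2 CPM in FA replicates 2, 3, 4 and 6, a coefficient of variation of 25.2%, and at 28.3, 10.3, 9.13 and 27.6 CPM in DE replicates 1, 3, 5 and 7, where it was 55.9%. In the other 7 tested genes this coefficient was between 4.5% and 15.4%. The log2 fold change of Cers6 was -0.36 ± 0.35, and its interval of -1.13 to 0.41 covers both a fall to 0.8 of the FA level and a rise by 25%. With 1 library left out the value ran from -0.64 (without DE replicate 1) to -0.13 (without DE replicate 5).

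The spread of Cers6 within DE followed the prefix of the sample names. Libraries of prefix 12 (replicates 3 and 5) were lower than DE libraries of prefix 11 (replicates 1 and 7) by a log2 difference of -1.52 ± 0.23, with an adjusted p of 0.0315 in edgeR's quasi-likelihood test of a model with 3 groups. This comparison was made after the values had been seen. By it, 1 of 8 tested synthesis genes was called, against 2.06% of all tested genes. With offsets for length and GC content the log2 difference was -1.10 with an adjusted p of 0.0153. In the libraries of prefix 11 alone, the log2 fold change of Cers6 between DE and FA was 0.22 and not -0.36, with an adjusted p of 0.645.

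A trend with transcript length moved with Cers6 across libraries. The annotated Cers6 transcript has 7038 bases. Over the 1816 tested genes with transcripts of at least 6000 bases, the median log2 deviation from each gene's own mean was 0.28, -0.11, 0.25 and -0.02 in FA replicates 2, 3, 4 and 6, and 0.08, -0.26, -0.28 and 0.09 in DE replicates 1, 3, 5 and 7. Thus the libraries with the lowest Cers6 in each group were also those in which long transcripts were lowest. The sizes differ, since Cers6 ranged over more than 3-fold, and the part of this trend in the values of Cers6 was not tested.

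**Figure D2:**
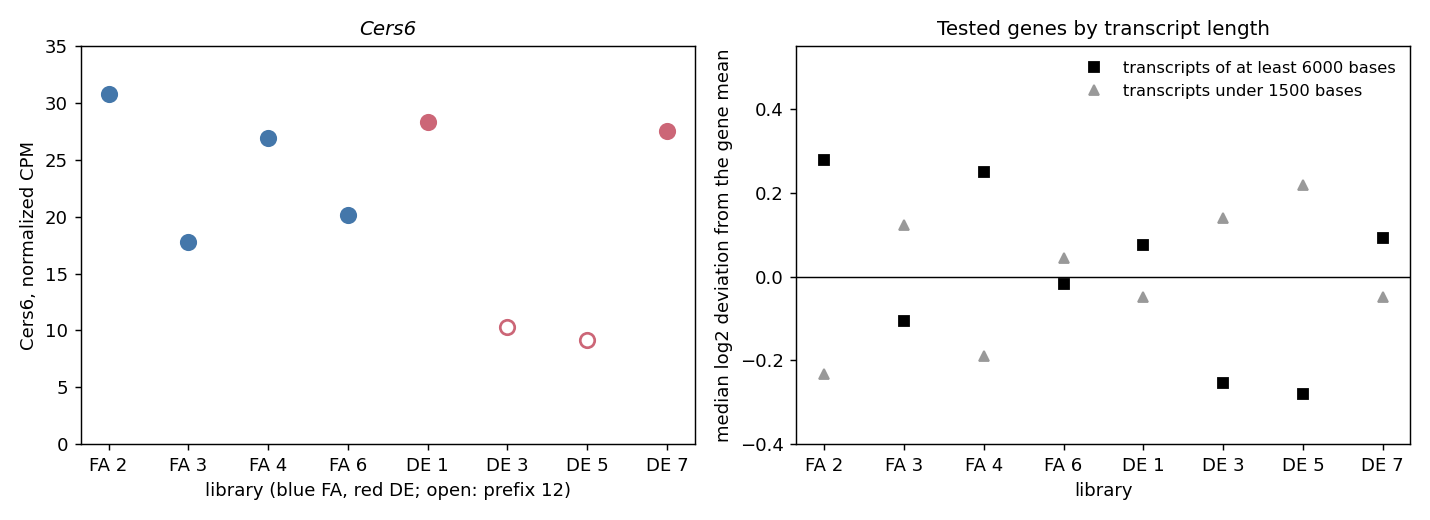
Left, normalized CPM of Cers6 in each library (blue FA, red DE, open points prefix 12). Right, median log2 deviation from the gene mean in each library over tested genes with transcripts of at least 6000 bases (squares) or under 1500 bases (triangles); DE replicates 3 and 5 have the lowest Cers6 and the lowest squares, at -0.26 and -0.28.

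Among the 4 tested ceramide synthases, each taken per length and as a share of their sum, Cers2 made up 59.1% ± 2.16 in FA and 56.3% ± 3.38 in DE (SD, n = 4). Cers5 came next with 25.7% ± 0.801 and 30.2% ± 1.92. Its share was 24.7%, 25.4%, 26.6% and 26.1% in FA replicates 2, 3, 4 and 6 and 28.5%, 32.7%, 28.9% and 30.7% in DE replicates 1, 3, 5 and 7, so that every DE library lay above every FA library. The difference of 4.53 percentage points had p = 0.0286 in a two-sided exact permutation test, the smallest p that 4 against 4 libraries allow, and an adjusted p of 0.143 over the 5 shares and ratios tested, which does not pass. Cers4 held 10.1% ± 0.751 and 9.26% ± 1.21, and Cers6 5.09% ± 1.59 and 4.18% ± 2.40. The adjusted p values of Cers2, Cers4 and Cers6 in the same exact test were 0.429, 0.429 and 0.679. These shares leave out Cers3, which was not among the genes picked here and had too few counts to be tested. It held 61 counts over the 8 libraries, with means of 0.271 CPM in FA and 0.254 CPM in DE. The shares also depend on the lengths used. Without division by length Cers2 held 41.5% in FA and 41.1% in DE, Cers4 30.3% and 28.7%, Cers5 17.0% and 20.8%, and Cers6 11.2% and 9.46%, again with no call.

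**Figure D3:**
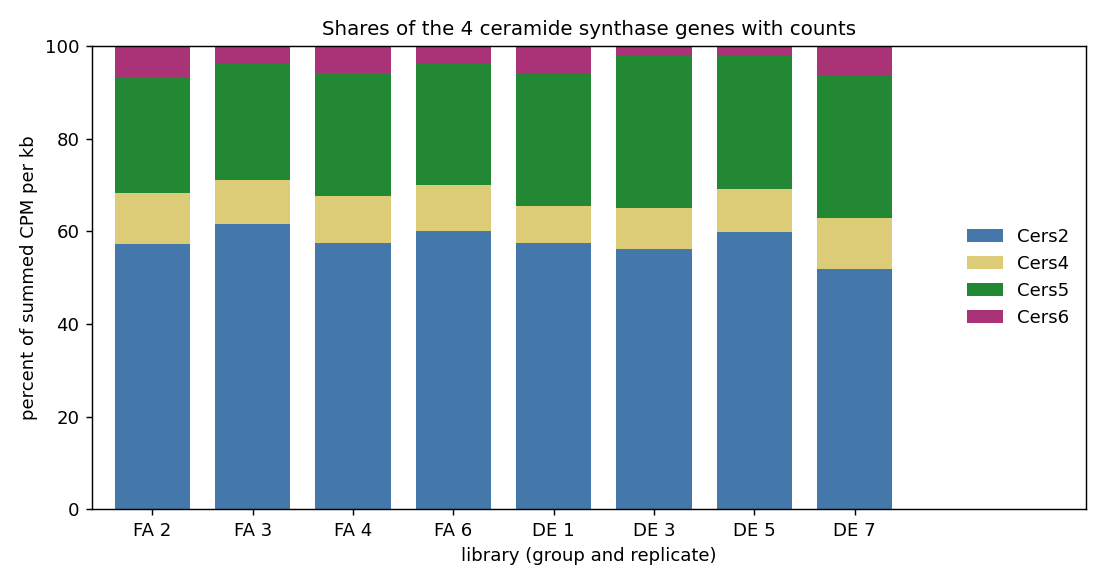
Stacked bars of the percent of summed CPM per kb held by Cers2, Cers4, Cers5 and Cers6 in each library. Cers2 is the largest part in all 8 libraries, and the Cers5 part (green) is 24.7% to 26.6% in FA and 28.5% to 32.7% in DE.

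Degs1, the desaturase that turns dihydroceramide into ceramide, was the most abundant of the 8 genes per length. It was at 104, 116, 101 and 128 CPM in FA and at 110.0, 132, 132 and 120.1 CPM in DE. The 2 highest values were the DE libraries of prefix 12, but FA replicate 6 lay above DE replicates 1 and 7. Its log2 fold change was 0.14 ± 0.11, with an interval of -0.10 to 0.38 and an adjusted p of 0.435, and with the prefix as a term it was 0.036. The gene lies on chromosome 1 from 182275964 to 182282854.

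Sgms1, the sphingomyelin synthase of the Golgi, had nearly equal means, 70.5 ± 4.90 CPM in FA and 70.3 ± 8.58 CPM in DE. Its values were 74.6, 68.3, 74.5 and 64.6 CPM in FA and 68.0, 63.5, 66.7 and 82.8 CPM in DE, where replicate 7 was the highest of all 8 libraries. The log2 fold change was -0.01 ± 0.11 (adjusted p = 0.979), with an interval of -0.24 to 0.23. The gene lies on chromosome 19 from 32122727 to 32389885.

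The precision differed among the genes. For 3 of 8, Sptlc1, Sptlc2 and Sgms1, the 95% interval of the fold lay between a fall to 0.8 of the FA level and a rise by 25%. The lower bound of Cers4 was 0.758. Cers2 (0.773 to 1.07), Degs1 (0.936 to 1.30) and Cers5 (0.967 to 1.30) reached past these bounds on 1 side, and Cers6 (0.457 to 1.33) on both. Across the 28 pairs of the 8 genes, Pearson's r of log2 CPM over the 8 libraries ran from -0.812 (Cers6 and Degs1) to 0.887 (Sptlc1 and Cers6), in libraries that share the length trend and the exposure groups.

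Other genes of sphingolipid turnover were compared in the same fit. Of 58 such genes in 7 lists, 52 could be tested and 4 were called (7.69%, beside 5.8% of all tested genes), 2 lower in DE (2.22% of all tested genes) and 2 higher (3.58%). Both this share and the 0 of 8 synthesis genes are near the background, and neither sets its genes apart. With library totals alone as scaling the calls were 0 lower and 6 higher. An unadjusted p under 0.05 was found for 19 (36.5%, beside 25.6%), and in 10 (19.2%, beside 14.7%) the groups did not overlap. The median log2 fold change of the 52 was 0.033. In each of the 4 called genes the FA and DE libraries did not overlap.

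**Figure D4:**
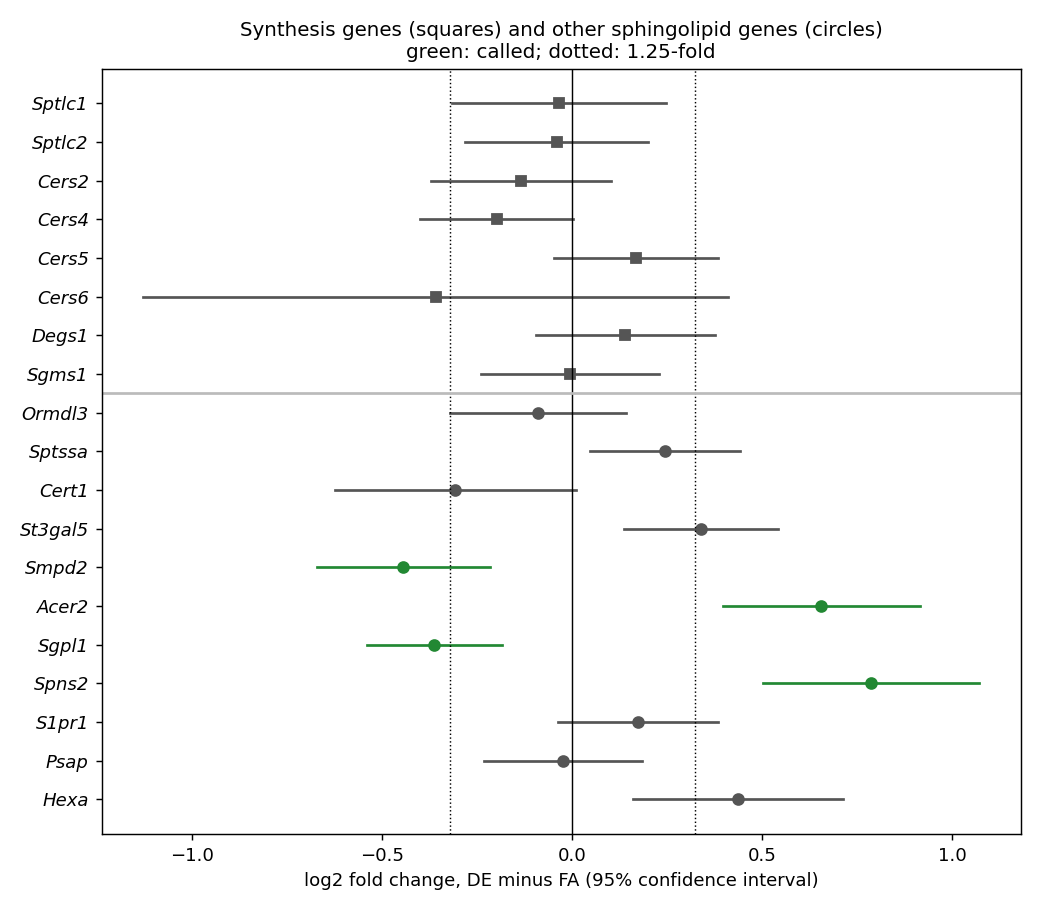
Log2 fold change (DE minus FA, x axis) with its 95% confidence interval for the 8 tested synthesis genes (squares) and 11 other sphingolipid genes (circles), green where called, with dotted lines at a rise by 25% and the equal fall on the log2 scale. All 8 squares have intervals that include 0, and the 4 green circles are Smpd2 and Sgpl1 on the left and Acer2 and Spns2 on the right.

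Spns2 encodes the transporter that releases S1P from cells and is best known from endothelium. It was at 16.7, 17.2, 16.3 and 18.1 CPM in FA and at 26.5, 37.4, 25.7 and 27.9 CPM in DE. All DE libraries were above all FA libraries, with DE replicate 3 highest. Spns2 rose 1.72-fold (95% interval 1.42 to 2.10, log2 0.79 ± 0.13, adjusted p = 0.00837).

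Acer2, an alkaline ceramidase of the Golgi that cleaves ceramide to sphingosine, rose as well. Its values were 29.8, 30.7, 35.7 and 36.6 CPM in FA and 46.9, 62.3, 49.3 and 50.7 CPM in DE. Again DE replicate 3 was highest and the groups did not overlap. The rise was 1.58-fold (1.32 to 1.88, log2 0.66 ± 0.12, adjusted p = 0.0114), and the call was lost with prefix 11 only (log2 0.55, adjusted p = 0.0553), where fewer libraries were compared. It was also lost with the 25% difference built into the test (adjusted p = 0.112).

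Sgpl1 encodes S1P lyase, which degrades S1P irreversibly and so ends the pathway. It was at 74.1, 72.2, 76.5 and 75.9 CPM in FA and at 58.0, 59.9, 56.4 and 58.0 CPM in DE, with little spread in either group. It fell to 0.778 of its FA level (0.688 to 0.879, log2 -0.36 ± 0.08, adjusted p = 0.0283). The call was lost with library totals alone as scaling (adjusted p = 0.0572), with the prefix as a term (0.0756) and with prefix 11 only (0.115). It was also lost without FA replicate 2, 3 or 4 or DE replicate 3 or 5 (0.0512 to 0.0990), and with the 25% difference built into the test (0.729). The log2 fold change stayed between -0.38 and -0.29 in all alternatives.

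Smpd2, a neutral sphingomyelinase that can release ceramide from sphingomyelin, was at 42.2, 50.6, 40.1 and 43.8 CPM in FA and at 30.4, 33.4, 35.4 and 30.4 CPM in DE. The fall was to 0.734 of the FA level (0.627 to 0.860, log2 -0.45 ± 0.10, adjusted p = 0.0335). It was the least stable of the 4 calls, kept in 11 of 21 alternatives against 12 for Sgpl1, 19 for Acer2 and 20 for Spns2. Its call was lost with library totals alone (adjusted p = 0.0520), with prefix 11 only (0.0619) and with the 25% difference built into the test (0.467). It was also lost without any single library other than DE replicate 5 (between 0.0519 and 0.0847). The log2 fold change stayed between -0.61 and -0.37 in all alternatives. Of its exonic bases, 20.3% overlap the opposite-strand gene Mical1, which fell by 0.44 on the log2 scale (adjusted p = 0.0463). The strand setting of the counting is not stated, so reads of the pair may not be separated.

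**Figure D5:**
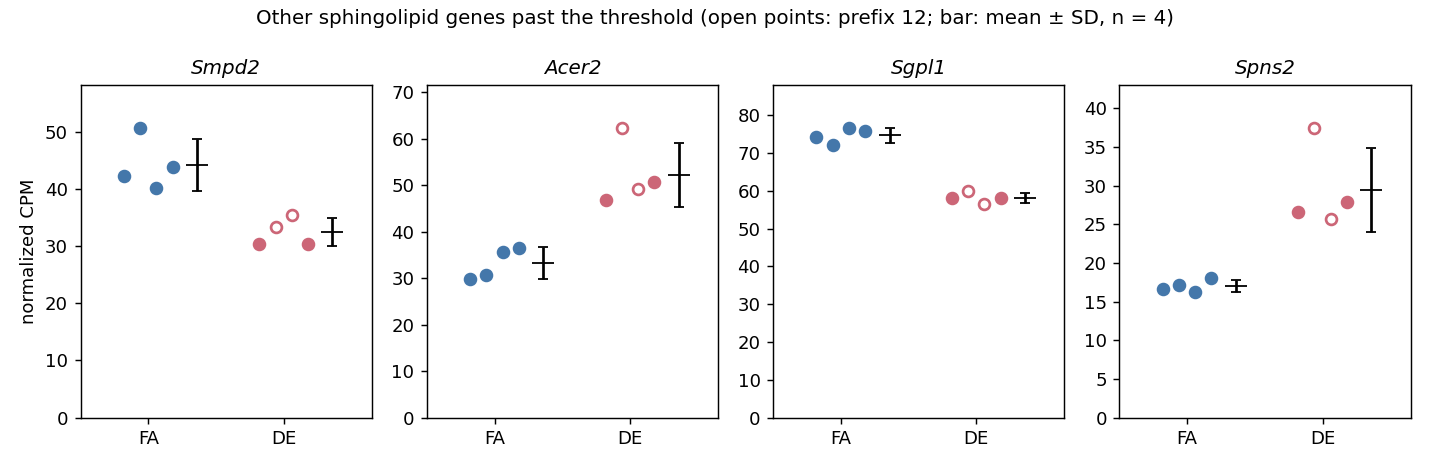
Normalized CPM (y axes, from 0) of Smpd2, Acer2, Sgpl1 and Spns2 in each FA (blue) and DE (red) library, open points for prefix 12, bars for the mean ± SD of 4 libraries. Smpd2 and Sgpl1 are lower and Acer2 and Spns2 higher in all 4 DE libraries than in any FA library.

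Markers of other cell types moved with exposure beside these 4 calls. Of 10 fibroblast markers, 10 had a higher mean in DE and 4 were called, beside 5.8% of all tested genes. Their summed levels given above do not overlap between groups. Single genes did not overlap in 14.7% of all tested genes, a share that is no reference for a sum of genes. Of 10 endothelial markers, 8 were higher and 0 were called, with sums of 1358 to 1749 CPM in FA and 1473 to 2152 CPM in DE. All 10 cardiomyocyte markers had a lower mean in DE, 2 of them called. For 8 smooth muscle and pericyte markers the sums were 513 to 732 CPM in FA and 446 to 648 CPM in DE with 0 called. The sums were 13.0 to 19.4 and 16.6 to 27.5 CPM for 10 leukocyte markers, of which 7 were tested and 1 was called, and 790.1 to 1903 and 1235 to 2045 CPM for 7 erythroid markers, 1 called. A count of 1 in 7 is near the 5.8% of all tested genes. No marker in the table was at 0 in all libraries. The part of cell composition in the values of Spns2, Acer2, Sgpl1 and Smpd2 was not tested.

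A list of SPT regulators, which also holds Kdsr, Cers3 and Degs2, synthesis enzymes not among the genes picked here, showed no call. Of 8 genes, 6 were tested, 4 with a lower and 2 with a higher mean in DE. The 0 calls are near the 5.8% called of all tested genes. Sptssa, the small subunit that raises SPT activity, was at 50.4, 57.1, 49.3 and 54.8 CPM in FA and at 64.0, 58.4, 63.4 and 64.8 CPM in DE. Its groups did not overlap, yet its log2 fold change of 0.24 ± 0.09 did not pass (adjusted p = 0.123). Ormdl3, one of the ORMDL proteins that restrain SPT, had the highest mean CPM of the list over all 8 libraries, with 62.3 ± 5.95 in FA and 58.5 ± 5.41 in DE, where Sptssa was higher (62.6 ± 2.89) (log2 -0.09 ± 0.11, adjusted p = 0.620).

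Genes that carry ceramide into complex sphingolipids also gave 0 calls, of 11 tested among 13, which is near the 5.8% called of all tested genes. St3gal5, the sialyltransferase that makes the ganglioside GM3, was at 23.6, 25.6, 22.9 and 26.8 CPM in FA and at 32.0, 31.7, 30.2 and 31.1 CPM in DE. The groups did not overlap, and the log2 fold change of 0.34 ± 0.09 missed the threshold (adjusted p = 0.0550), but it was called in 5 of 21 alternatives, DESeq2 among them (0.00718). Cert1, which carries ceramide from the endoplasmic reticulum to the Golgi for sphingomyelin synthesis, was at 131, 106, 123 and 97.9 CPM in FA and at 101, 78.2, 77.9 and 113 CPM in DE. Its log2 fold change was -0.31 ± 0.14 (adjusted p = 0.209), and, as for Cers6, DE replicates 3 and 5 were lowest. It was -0.10 with the prefix as a term or with prefix 11 only, and -0.18 with offsets for length and GC content.

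In the sphingomyelinase list 1 of 6 tested genes was called (Smpd2), in the ceramidase list 1 of 5 (Acer2) and in the list of S1P metabolism 2 of 10 (Sgpl1 and Spns2), beside 5.8% of all tested genes. In lists of this size 1 or 2 calls set no list apart. Of 5 S1P receptors, 3 could be tested and 0 were called. S1pr1, the main receptor of endothelium and cardiomyocytes, was at 143 to 156 CPM in FA and 149 to 185 CPM in DE (log2 0.17 ± 0.10, adjusted p = 0.278).

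The 11 genes of glycosphingolipid breakdown, all of the lysosome but Gba2, which encodes the non-lysosomal glucosylceramidase, held 0 calls. Of the 11, 8 had a higher mean in DE. An unadjusted p under 0.05 was found for 7 (63.6%, beside 25.6% of all tested genes), 6 of them higher in DE and 1, Gba2, lower (log2 -0.28, adjusted p = 0.133), a gene named after its values were seen. Hexa, a subunit of the hexosaminidase that degrades ganglioside GM2, was at 23.6, 32.4, 25.1 and 26.6 CPM in FA and at 31.6, 42.1, 36.6 and 35.1 CPM in DE, where replicate 1 lay below FA replicate 3 and the groups thus overlapped. Its log2 fold change was 0.44 ± 0.13 (adjusted p = 0.0654), and it was called in 5 of 21 alternatives, DESeq2 among them (0.0214). Of its exonic bases, 12.8% overlap Tmem202 on the other strand. Psap, the precursor of the saposins that assist these enzymes, was the most abundant of the list by CPM and had nearly equal means, 585 ± 48.5 CPM in FA and 575 ± 28.9 CPM in DE (log2 -0.02 ± 0.09, adjusted p = 0.898). The median log2 fold change of the 11 genes was 0.25, beside 0.0037 for all tested genes. The median was 0.66 for the 10 fibroblast markers and 0.49 for the 7 leukocyte markers tested, of which 6 had a higher mean in DE. For the other marker lists it was 0.405 (erythroid), 0.267 (endothelial), 0.105 (smooth muscle and pericyte) and -0.179 (cardiomyocyte). Against FA, Hexa was higher by 0.55 on the log2 scale in the DE libraries of prefix 12 and by 0.31 in those of prefix 11, and the difference between the prefixes did not pass (adjusted p = 0.373). None of the 11 genes passed in this comparison of prefixes (edgeR's quasi-likelihood test), where the lowest adjusted p was 0.101 (Neu1). The part of cell composition in the values of these 11 genes was not tested.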

How the data were processed

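RNA-seq of NCMs from 4 FA and 4 DE pups was used. The authors enriched poly-A RNA, prepared stranded libraries, used Tophat to align reads to mm10 with an Ensembl transcriptome, kept PCR duplicates after marking them, and used featureCounts to assign fragments to genes. What they deposited are raw counts, 1 row for each Entrez gene. The counting annotation, strand setting and treatment of fragments on several genes are not given in the sources used here, and bear on Cers1 and Smpd2. Duplicates left in the counts make counting precision look better than it is. The methods state n = 3 per group without naming the libraries, so all 8 were used.

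Entrez IDs were matched to symbols through RefSeq on GRCm38.p6 (25275 of 27179, with the rest holding 0.384% to 0.581% of counts). Transcript lengths were taken from GENCODE M21, as the longest transcript paired with RefSeq, and known for 92.55% of tested genes. The 14966 genes kept by filterByExpr (minimum count 10) were TMM scaled. The test was edgeR's quasi-likelihood test (version 4.0.16, R 4.3.3) for exposure alone, and p-values were adjusted by Benjamini and Hochberg's method across these genes. A call needed an adjusted p of 0.05 or less together with a difference of at least 25%. The biological coefficient of variation was 15.95%. Log2 deviations used CPM plus 0.5. Shares were tested with two-sided exact permutation tests. Libraries of a group differed by more than counting noise in all 12 pairs (chi-square per gene between 5.37 and 70.1). Because duplicates were kept and libraries differ in their length trend, this cannot separate pups from library preparation. P-values measure the spread between libraries, each from 1 pup. Whether pups shared a litter is not stated.

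The genes described and all lists were chosen with earlier results of these data known. Named were the 10 synthesis genes, every called gene of the other lists, in lists where neither was called the gene of highest mean CPM and that of smallest p, and the 3 genes most like the synthesis gene of smallest p. Results were recomputed with limma-voom (limma 3.58.1), DESeq2 1.42.0, edgeR's likelihood ratio test, the adjusted p without a minimum difference, a test against the 25% difference, other scaling factors, other filters, the sample-name prefix as a term, prefix 11 only, offsets for GC content and transcript length (5 spline degrees of freedom), and each library left out. The code was tested on simulated data. Marker lists covered cardiomyocytes, fibroblasts, endothelium, smooth muscle and pericytes, leukocytes and erythroid cells.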

Additional observations from a re-analysis of the deposited data

Results flagged for a closer look

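Cers6 was flagged because its level differed between the DE libraries of the 2 sample-name prefixes, at 10.3 and 9.13 CPM with prefix 12 and 28.3 and 27.6 CPM with prefix 11 (log2 difference -1.52 ± 0.23, edgeR's quasi-likelihood test, adjusted p = 0.0315). The comparison was made after the values were seen, and with 2 libraries on each side and no FA library of prefix 12, the prefix and the pups cannot be told apart. None of the other 7 tested synthesis genes or the 11 other sphingolipid genes named had an adjusted p of 0.05 or less in this comparison. Of the 38 groups of 4 libraries examined (19 genes, FA and DE), 0 held a library whose gap to the rest exceeded Dixon's 95% critical value, where chance would flag about 1 in 20.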

How the results depend on the processing

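The number of synthesis genes called was 0 in the main test and in all 21 alternatives. The number of other sphingolipid genes called, 4 in the main test, was 10 with DESeq2, 8 with the likelihood ratio test, 7 with offsets for GC content and transcript length, 1 (Spns2) with prefix 11 only, 6 (0 lower and 6 higher) with library totals alone, and 0 with the 25% difference built into the test (where the adjusted p of Spns2 was 0.0590); with each library left out it was 2 to 4, with 2 without FA replicate 2, FA replicate 4 or DE replicate 3. Over all tested genes the calls were 868 in the main test, 1618 with DESeq2, 1603 with the likelihood ratio test, 1612 with offsets, 448 with the prefix as a term, 260 with prefix 11 only, 114 with the 25% difference, and 237 to 1168 with each library left out. Signs turned for synthesis genes that were not called. With library totals alone the log2 fold changes were 0.037 for Sptlc1, 0.033 for Sptlc2 and 0.063 for Sgms1, a setting that moved the median of all tested genes to 0.076. With the prefix as a term they were 0.13 for Sptlc1, 0.22 for Cers6 and 0.10 for Sgms1, and with prefix 11 only 0.13, 0.22 and 0.092. With offsets they were 0.12 for Sptlc2, 0.045 for Cers4 and 0.065 for Sgms1. Sgms1 was at 0.018 with upper quartile factors and 0.0023 without a filter. Psap was at 0.00046 with upper quartile factors and 0.048 with library totals alone. With each library left out, log2 fold changes ran from -0.11 to 0.061 for Sptlc1, -0.10 to 0.019 for Sptlc2, -0.10 to 0.038 for Sgms1, -0.64 to -0.13 for Cers6 and -0.069 to 0.015 for Psap, and the difference in the log2 ratio of Sptlc2 to Sptlc1 from -0.078 to 0.11 (-0.22 with prefix 11 only). The causes of these turns were not tested. The share of Cers6 was 1.16 percentage points higher in DE with prefix 11 only, where the smallest p of an exact permutation test is 0.0667. The difference between prefixes among DE libraries turned to 0.51 for Cers4 and 0.0043 for Sgms1 with offsets, an alternative chosen after seeing the data, as was the comparison itself. No paired analysis was made, because nothing in the sample labels pairs FA with DE libraries. Counts of 0 to 1, for Cers1 and Sptlc3, limit what can be said of these genes at this depth.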
